A study of Mus musculus with 12 samples.

Results

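The quantity described here is the genotype by TGFB1 interaction: how far the change that added TGFB1 made in Tgfbr2KO cultures differed from the change it made in cultures without the knockout. It was computed for every gene as (TGFB1_KO minus Vehicle_Tgfbr2KO) minus (TGFB1 minus Vehicle) on log2(FPKM + 1), where FPKM is a fragment count scaled to transcript length and library size. A gene entered if 3 or more of the 12 libraries listed it at 1 FPKM or above, which gave 12641 of the 25203 genes in the deposited table. A positive value means that the change with TGFB1 was higher in Tgfbr2KO than without it, and a negative value that it was lower.

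The libraries came from mouse intestinal stroma, primary cultures of Pdgfra-lo-H2B-GFP cells, named for a nuclear GFP reporter that marks cells with low Pdgfra expression and labelled mesenchyme. There were 4 groups of 3 libraries. Vehicle and TGFB1 cultures carried no knockout label and are called non-knockout cultures below. Vehicle_Tgfbr2KO and TGFB1_KO cultures were Tgfbr2 knockout cells given vehicle or TGFB1. The reporter was shared by all groups, and the knockout arm was set up to look for effects of TGFB1 outside the canonical pathway. The age of the animals, how and where in the gene Tgfbr2 was deleted, the dose of TGFB1 and the time of exposure are not given in the sources used here. Neither is it stated that the libraries of a group came from separate animals, so the p-values measure the spread between these libraries, which may be technical. FPKM values carry no read totals. The size of the lowest values put the depth of the libraries at 0.744 to 1.25 times that of Vehicle replicate 1, with the 3 TGFB1 libraries at 0.744 to 0.8.

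TGFB1 is a secreted ligand that binds the type II receptor TGFBR2, which then recruits and phosphorylates the type I receptor TGFBR1. The canonical branch runs from TGFBR1 through SMAD2 and SMAD3, which enter the nucleus with SMAD4, while other branches of the same receptors act through kinases of the MAPK and PI3K families. In the gut, PDGFRA-low stromal cells lie under the epithelium near the crypts and supply stem cell niche factors such as the BMP antagonist GREM1 and the R-spondins, and TGFB1 is known for driving fibroblasts towards matrix production and contractility.

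Tgfbr2 itself was listed at 48.0, 38.2 and 78.8 FPKM in Vehicle and at 56.5, 70.6 and 74.6 FPKM in TGFB1. In Vehicle_Tgfbr2KO it was listed at 27.0, 35.2 and 41.9 FPKM, and in TGFB1_KO at 31.6, 38.03 and 62.4 FPKM. The knockout libraries were lower on average and overlapped the non-knockout libraries. The gap was -0.61 on the log2 scale with vehicle (SE 0.30, limma adjusted p = 0.26) and -0.65 with TGFB1 (SE 0.30, adjusted p = 0.119). Because the deleted part is not stated, a gene-level value does not check the knockout labels. The interaction of Tgfbr2 was -0.04 (SE 0.42, 95% interval -0.97 to 0.89, adjusted p = 0.957), and its sign changed when single libraries were left out.

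Across all 12641 genes, the response to TGFB1 depended on the Tgfbr2KO label for 2230 genes (17.6%) by limma at a Benjamini-Hochberg adjusted p under 0.05. Of these, 1059 genes (8.38%) were higher in the knockout response and 1171 (9.26%) were lower. At an unadjusted p under 0.05 there were 4086 genes (32.3%). A fit with the replicate number as a block within each genotype called 3558 genes (28.1%), 1733 higher and 1825 lower, and 2181 of the 2230 were among them. Without TGFB1 replicate 1 the count was 1486. With replicate number 1 left out of all 4 groups it was 511, and with number 2 left out it was 295. Of those, 498 and 288 were also among the 2230 with the same sign.

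The larger differences were more often positive than negative. At a called difference of at least 1 on the log2 scale there were 439 genes on the higher side (3.47%) and 254 on the lower side (2.01%). At least 2 was reached by 142 (1.12%) and 49 (0.388%), and at least 4 by 23 (0.182%) and 1 gene (0.00791%), the latter being Odaph. The sign was the same in all 3 replicate numbers for 1057 of the 1059 higher genes and for 1171 of 1171 lower genes. Over all 12641 genes it was the same for 7046 (55.7%). The call itself favours equal signs, because it rests on the same libraries, so the agreement is not a replication.

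Most of the called differences came from a change in the non-knockout cultures with little change in the knockout. The higher genes had a median interaction of 0.88 (quartiles 0.61 and 1.42), made of a median change of -0.78 without the knockout and 0.13 in it. The lower genes had a median interaction of -0.56 (quartiles -0.89 and -0.41), made of 0.51 without the knockout and -0.05 in it. The change in Tgfbr2KO was under 0.5 times the size of the other in 935 higher genes (88.3%) and 1094 lower genes (93.4%). Read the other way, the gap between genotypes was small with vehicle, with medians of -0.11 and 0.03, and wide with TGFB1, with medians of 0.76 and -0.54. Over all tested genes the SD of the log2 change was 0.57 without the knockout and 0.23 in it.

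**Figure D1:**
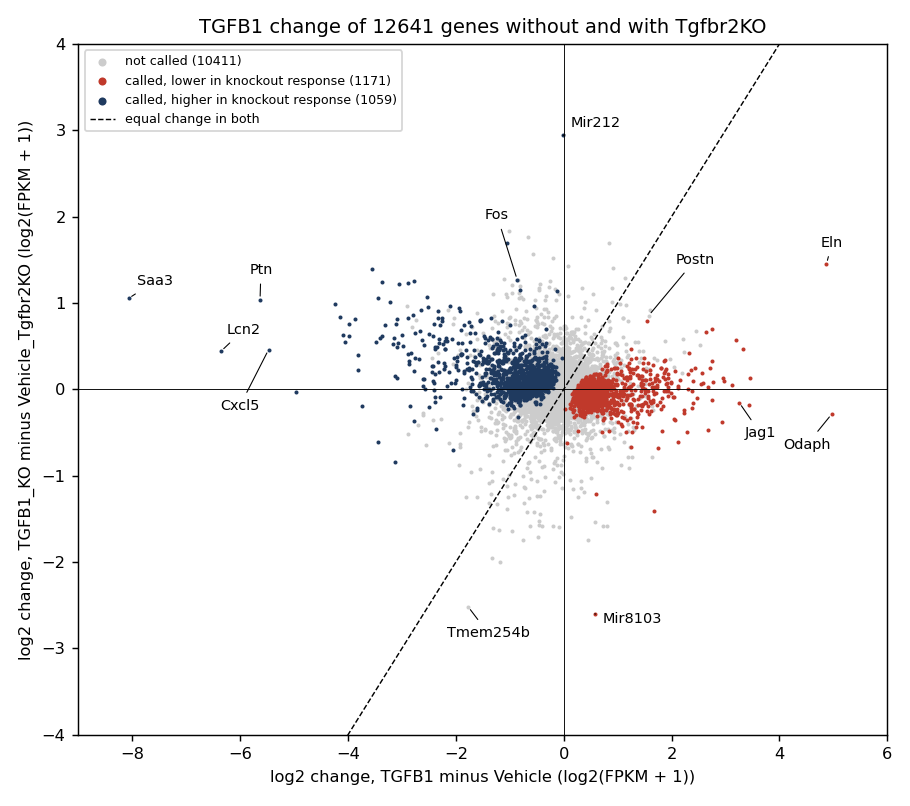
Each point is 1 of 12641 genes: the x axis is the log2 change TGFB1 minus Vehicle and the y axis the log2 change TGFB1_KO minus Vehicle_Tgfbr2KO, both on log2(FPKM + 1), and the dashed line marks equal changes. Coloured points are the 1171 genes called lower (red) and 1059 called higher (blue) in the knockout response, and they spread along the x axis, from Saa3 at the left to Odaph and Eln at the right, far more than along the y axis.

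Taken alone, the change within Tgfbr2KO passed the limma threshold for 0 of 12641 genes (0.0%), against 4033 (31.9%) for the change without the knockout. At an unadjusted p under 0.05 the knockout change counted 748 genes (5.92%). With the block within genotype the adjusted count in the knockout was still 0, with 1976 genes (15.6%) at an unadjusted p under 0.05 and a smallest adjusted p of 0.114. The absence of calls is not evidence that every gene stayed level in the knockout.

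The TGFB1 libraries were the group that stood apart. For 2171 genes (17.2%) the 3 TGFB1 libraries all lay above the 9 others, and for 1753 (13.9%) all lay below. The other groups stood apart for far fewer genes. Vehicle lay above the rest in 147 genes (1.16%) and below in 234 (1.85%), Vehicle_Tgfbr2KO above in 150 (1.19%) and below in 206 (1.63%), and TGFB1_KO above in 111 (0.878%) and below in 88 (0.696%). Among the 2230 called genes, TGFB1 stood above the rest in 1071 (48.0%) and below it in 893 (40.0%), shares that the call itself favours. The 3 TGFB1_KO libraries lay above all others in 55 called genes (2.47%) and below in 38 (1.7%). Over all tested genes these shares were 0.878% and 0.696%, and the call favours such genes too.

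**Figure D2:**
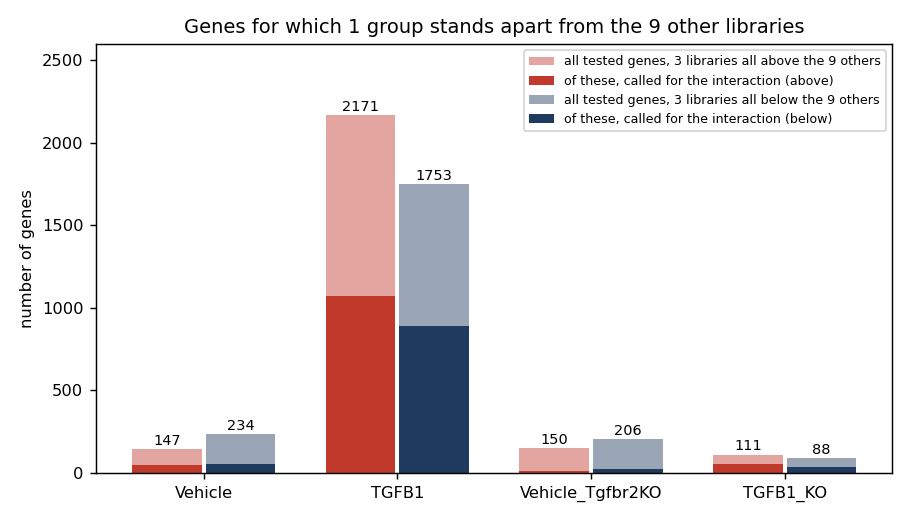
Bars count the genes (y axis) for which the 3 libraries of a group all lie above (red) or all below (blue) the 9 other libraries, over all 12641 tested genes (pale) and those called for the interaction (dark). TGFB1 has 2171 and 1753 such genes, and no other group has more than 234 on either side.

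The promoters of 4 genes with extreme interaction values are shown as examples from both ends of the distribution: Odaph and Jag1 on the lower side and Lcn2 and Saa3 on the higher side. They are not a ranking, since 3110040M04Rik (-3.62) and Eln (-3.42) had more negative values than Jag1 (-3.41). They are RefSeq windows of 300 bases on GRCm38.p6, from 250 bases before the annotated start to 50 after it, written 5′ to 3′ on the gene's strand. The submitters' notes name mm9, so these positions belong to the RefSeq table and not to the deposited data. Capitals mark CAGAC on either strand, the letters of a SMAD-binding element. The windows are chr5:91987223-91987522 on the plus strand for Odaph, chr2:137116471-137116770 on the minus strand for Jag1, chr2:32387690-32387989 on the minus strand for Lcn2 and chr7:46715627-46715926 on the minus strand for Saa3.
Odaph: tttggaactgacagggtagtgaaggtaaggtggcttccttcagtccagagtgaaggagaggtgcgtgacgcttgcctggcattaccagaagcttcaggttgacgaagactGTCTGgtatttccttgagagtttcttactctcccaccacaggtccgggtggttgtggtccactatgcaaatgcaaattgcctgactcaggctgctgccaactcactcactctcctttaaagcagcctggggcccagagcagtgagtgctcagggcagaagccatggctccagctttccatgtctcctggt
Jag1: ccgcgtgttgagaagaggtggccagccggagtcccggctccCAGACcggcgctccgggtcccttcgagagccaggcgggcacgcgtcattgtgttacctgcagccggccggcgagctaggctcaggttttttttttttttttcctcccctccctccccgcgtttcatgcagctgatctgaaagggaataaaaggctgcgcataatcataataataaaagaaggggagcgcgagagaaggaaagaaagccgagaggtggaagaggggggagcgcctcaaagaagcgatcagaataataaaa
Lcn2: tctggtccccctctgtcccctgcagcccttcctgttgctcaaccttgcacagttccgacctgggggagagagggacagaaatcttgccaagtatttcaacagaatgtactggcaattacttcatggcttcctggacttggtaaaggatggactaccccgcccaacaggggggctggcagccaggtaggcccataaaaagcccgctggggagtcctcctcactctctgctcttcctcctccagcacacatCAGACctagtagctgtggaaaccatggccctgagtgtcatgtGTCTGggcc
Saa3: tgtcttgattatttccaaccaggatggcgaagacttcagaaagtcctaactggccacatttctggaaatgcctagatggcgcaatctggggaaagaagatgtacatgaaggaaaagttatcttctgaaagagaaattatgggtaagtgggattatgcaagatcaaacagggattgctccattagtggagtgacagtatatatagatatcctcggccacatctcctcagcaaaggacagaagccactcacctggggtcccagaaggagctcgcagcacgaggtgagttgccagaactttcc
The window of Odaph held 1 match, that of Jag1 held 1, that of Lcn2 held 2 and that of Saa3 held 0. The window of 3110040M04Rik, which is not printed, held 0. Over the 12544 windows of the 9853 tested genes in the table, 47.4% held CAGAC, compared with 48.0% of 1101 windows of genes called higher and 51.8% of 1202 windows of genes called lower. The palindrome GTCTAGAC, which does not contain CAGAC on either strand, was in 0.247% of all windows, in 0.0% of the higher and in 0.582% of the lower. The AP-1 letters TGANTCA were in 5.36%, 6.09% and 6.99%, the TEAD letters GGAATG in 12.2%, 12.8% and 11.8%, and GGCGCC, a GC-rich SMAD motif, in 21.1%, 19.5% and 23.3%, in the same order. These shares are descriptions of short windows and do not show binding.

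On the higher side, the acute phase and inflammatory genes held the largest values. Saa3, an acute phase apolipoprotein, was at 2310, 2870 and 2628 FPKM in Vehicle and at 11.9, 6.15 and 8.82 FPKM in TGFB1. In Vehicle_Tgfbr2KO it was at 704, 1850 and 2717 FPKM and in TGFB1_KO at 1659, 2614 and 7319 FPKM. The 3 TGFB1 libraries were far below the 9 others, and both knockout groups overlapped Vehicle. The mean was 291 times lower with TGFB1 without the knockout and 2.20 times higher with it in Tgfbr2KO, an interaction of 9.12 (SE 0.79, adjusted p = 9.73e-05), the largest of the called genes.

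Lcn2, the siderophore-binding lipocalin, was at 126, 106 and 69.5 FPKM in Vehicle and at 0.457, 0.0995 and 0.0919 FPKM in TGFB1. It was at 180, 226 and 257 FPKM in Vehicle_Tgfbr2KO and at 267, 268 and 369 FPKM in TGFB1_KO, so all 6 knockout libraries lay above all 6 others. Its interaction was 6.80 (SE 0.32, adjusted p = 2.02e-06). Cxcl5, a neutrophil chemokine, was at 541 to 747 FPKM in Vehicle, 12.7 to 15.3 in TGFB1, 675 to 765 in Vehicle_Tgfbr2KO and 872 to 1174 in TGFB1_KO. Its interaction was 5.93 (SE 0.20, adjusted p = 2.82e-07). Only the TGFB1 libraries of Cxcl5 fell outside the range from 541 to 1174.

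Hp, Ptx3 and Il6, at lower levels, also had their 3 TGFB1 libraries below the 9 others. Haptoglobin, Hp, was at 11.9, 13.2 and 12.7 FPKM in Vehicle and at 0.0539, 0.262 and 0.163 FPKM in TGFB1, and at 1.71, 5.16 and 5.88 FPKM in Vehicle_Tgfbr2KO and 6.24, 8.96 and 27.8 FPKM in TGFB1_KO (interaction 4.94, SE 0.66, adjusted p = 0.000932). Ptx3, a pentraxin, had an interaction of 4.94 as well (SE 0.39, adjusted p = 7.07e-05), with 51.0 to 85.6 FPKM in every knockout library and 0.311 to 0.547 in TGFB1. The cytokine Il6 was at 66.2, 71.8 and 59.2 FPKM in Vehicle, 9.42, 14.3 and 18.2 in TGFB1, 84.3, 115 and 92.5 in Vehicle_Tgfbr2KO and 117, 150 and 136 in TGFB1_KO (interaction 2.66, SE 0.28, adjusted p = 0.000267). TGFB1 and TGFB1_KO thus lay on opposite sides of the vehicle groups for Il6.

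Of 24 tested acute phase and inflammatory genes, 11 were called higher and 1 lower, beside 8.38% and 9.26% over all genes. The list had a median interaction of 1.21 against -0.02 over all genes. The median change was -1.04 without the knockout and 0.13 in it. The gene called lower was Tnfaip3, an inhibitor of NF-kB signalling (interaction -1.32, SE 0.34, adjusted p = 0.0242; picked out after its values were seen). With the block within genotype the list had 19 called genes in place of 12. Complement genes gave 5 higher and 0 lower of 10 tested, with a median interaction of 2.31, and 8 called with the block. C3, the central complement component, was at 44.99, 54.7 and 72.3 FPKM in Vehicle, 4.34, 7.27 and 5.87 in TGFB1, 31.8, 43.0 and 45.3 in Vehicle_Tgfbr2KO and 41.5, 46.2 and 90.7 in TGFB1_KO (interaction 3.58, SE 0.41, adjusted p = 0.000437). Serping1, which inhibits C1, had an interaction of 3.87, C4b of 3.47 and C1ra of 3.05. The call of C1ra was lost without any 1 of 6 libraries (TGFB1 replicates 1 and 3, Vehicle replicates 2 and 3, Vehicle_Tgfbr2KO replicates 1 and 2), with adjusted p up to 0.0737.

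Leukocyte transcripts were present in these cultures at uneven levels, and their part in the inflammatory differences was not tested. The summed level of 15 leukocyte and macrophage markers ranged from 42.1 to 727 FPKM in Vehicle, 16.5 to 386 in TGFB1, 341 to 510 in Vehicle_Tgfbr2KO and 213 to 414 in TGFB1_KO. The lowest sums without the knockout were those of replicate 2, where Lyz2 was at 24.8 FPKM in Vehicle and 8.28 in TGFB1. S100a8 alone was at 219, 122 and 39.5 FPKM in Vehicle_Tgfbr2KO and 188, 125 and 10.3 in TGFB1_KO. Without the knockout it was at 0 to 11.2 FPKM, so the sums do not follow macrophage markers alone. Of the 11 markers tested, 0 were called for the interaction, beside 17.6% over all genes. The block within genotype called 2 (Lyz2 and Cd14), both higher, beside 28.1% over all genes. Counts over 11 markers are too small to set apart from these shares. Lyz2, the macrophage lysozyme, had an interaction of 0.68 (SE 1.91, adjusted p = 0.843; 0.0304 with the block). Endothelial markers summed to between 1.28 and 27.0 FPKM in all libraries, and epithelial markers to at most 9.72 FPKM in non-knockout libraries. The highest epithelial sums were those of replicate 1 of Vehicle_Tgfbr2KO (65.1 FPKM) and of TGFB1_KO (29.1 FPKM), where the keratin Krt8 was at 25.8 and 7.80 FPKM, while it was at 0 to 0.0542 FPKM in the other 4 knockout libraries. The epithelial genes Cdx2 and Fabp1 were listed at 0 in all 12. Fibroblast markers summed to 5841 to 10380 FPKM in Vehicle, 8509 to 9422 in TGFB1, 3066 to 4463 in Vehicle_Tgfbr2KO and 3933 to 8061 in TGFB1_KO. The untreated knockout sums thus lay below all untreated non-knockout sums. In bulk libraries, fewer cells of a type and less RNA per cell cannot be told apart.

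Pdgfra, the PDGF receptor that marks these stromal cells, was itself among the called genes. It was at 137, 125 and 165 FPKM in Vehicle and 13.8, 19.7 and 12.1 FPKM in TGFB1. It was at 48.3, 75.3 and 99.8 FPKM in Vehicle_Tgfbr2KO and 67.3, 83.2 and 195 FPKM in TGFB1_KO. The TGFB1 libraries were below all others, and the untreated knockout libraries were below the untreated non-knockout libraries. The mean was 9.37 times lower with TGFB1 without the knockout and 1.55 times higher in Tgfbr2KO, with an interaction of 3.69 (SE 0.53, adjusted p = 0.00149).

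Genes on the niche factor list were called higher in the knockout response more often than lower. Of 16 tested genes listed as stem cell niche factors and WNT agonists, 7 were called higher and 2 lower, beside 8.38% and 9.26% over all genes. Their median interaction was 0.58. The 7 include the surface marker Cd34 and the WNT antagonist Sfrp1, which are not niche factors or WNT agonists themselves. Grem1, the secreted BMP antagonist, was at 789, 642 and 740 FPKM in Vehicle, 339, 250.2 and 234 in TGFB1, 812, 819 and 690.3 in Vehicle_Tgfbr2KO and 910.35, 867 and 1108 in TGFB1_KO. Its interaction was 1.72 (SE 0.21, adjusted p = 0.000564). Every TGFB1_KO library was above every other library for Grem1. Fgf10, a growth factor for epithelial progenitors, was at 37.95 to 48.5 FPKM in Vehicle, 1.76 to 2.37 in TGFB1, 35.6 to 41.1 in Vehicle_Tgfbr2KO and 44.8 to 65.1 in TGFB1_KO (interaction 4.21, SE 0.20, adjusted p = 2.15e-06).

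The R-spondins, which amplify WNT signalling through LGR receptors, differed in the same direction. Rspo3 was at 8.98, 7.97 and 17.5 FPKM in Vehicle, 0.597, 1.20 and 1.03 in TGFB1, 4.10, 7.52 and 9.66 in Vehicle_Tgfbr2KO and 6.81, 8.57 and 19.3 in TGFB1_KO (interaction 3.19, SE 0.56, adjusted p = 0.00423). Rspo1 had an interaction of 4.12 (SE 0.69, adjusted p = 0.00345), with 6.48 to 8.92 FPKM in Vehicle and 0.798 to 2.77 in Vehicle_Tgfbr2KO. Its untreated levels therefore did not overlap between genotypes. Cd34, a surface marker of the niche-supporting cells, had an interaction of 4.04, and the WNT-binding antagonist Sfrp1 of 4.51.

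The 2 niche genes on the lower side were WNT ligands, picked out after their values were seen. Wnt5a, a noncanonical WNT ligand, was at 20.6, 21.8 and 16.5 FPKM in Vehicle, 38.9, 37.1 and 37.2 in TGFB1, 19.9, 20.6 and 19.3 in Vehicle_Tgfbr2KO and 20.2, 19.1 and 14.9 in TGFB1_KO (interaction -1.06, SE 0.16, adjusted p = 0.00222). Only the TGFB1 libraries stood above the rest. Wnt9a had an interaction of -1.45 (SE 0.20, adjusted p = 0.00114). Among WNT targets and secreted antagonists, 4 of 12 were higher, beside 8.38% over all genes, with Frzb at 3.62 and Nkd2 at 2.51. Sfrp1 is counted among these 4 as well as on the niche list. Dkk2 was lower at -1.68. The call of Dkk2 was kept without TGFB1_KO replicate 1, TGFB1_KO replicate 3 or Vehicle replicate 1 and lost without any other single library (adjusted p up to 0.107).

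The list of BMP ligands and receptors, which also holds activin subunits and the protease gene Bmp1, had called genes on both sides. Bmp4, a BMP ligand, was at 20.3, 14.0 and 12.2 FPKM in Vehicle, 0.863, 1.34 and 1.53 in TGFB1, 20.2, 25.7 and 14.8 in Vehicle_Tgfbr2KO and 27.4, 29.5 and 19.8 in TGFB1_KO (interaction 3.19, SE 0.33, adjusted p = 0.000233). Inhba, the activin A subunit, was at 47.3, 51.5 and 31.3 FPKM in Vehicle, 198, 176 and 172 in TGFB1, 59.0, 57.1 and 45.9 in Vehicle_Tgfbr2KO and 54.5, 60.0 and 22.2 in TGFB1_KO (interaction -2.43, SE 0.45, adjusted p = 0.0057). For both genes the 3 TGFB1 libraries were separate from the 9 others, low for Bmp4 and high for Inhba. Of 12 tested genes on the list, 2 were called higher and 3 lower, beside 8.38% and 9.26% over all genes. The higher genes were the ligands Bmp4 and Bmp6. The lower genes were Inhba, Bmp1 and the receptor Acvr1, so no BMP ligand was called lower.

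Of 12 BMP-SMAD targets, 5 were called higher and 0 lower, beside 8.38% and 9.26% over all genes. All 5 were Id genes or Atoh8, which encode helix-loop-helix regulators. Id2 was at 28.0, 27.8 and 28.5 FPKM in Vehicle, 6.01, 2.65 and 6.42 in TGFB1, 36.1, 40.3 and 36.5 in Vehicle_Tgfbr2KO and 40.7, 44.97 and 56.6 in TGFB1_KO (interaction 2.65, SE 0.32, adjusted p = 0.000563). Its 6 knockout libraries all lay above its 6 others. Atoh8 had an interaction of 1.48, Id1 of 1.39 and Id4 of 1.24. The median interaction of the list was 0.54.

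**Figure D3:**
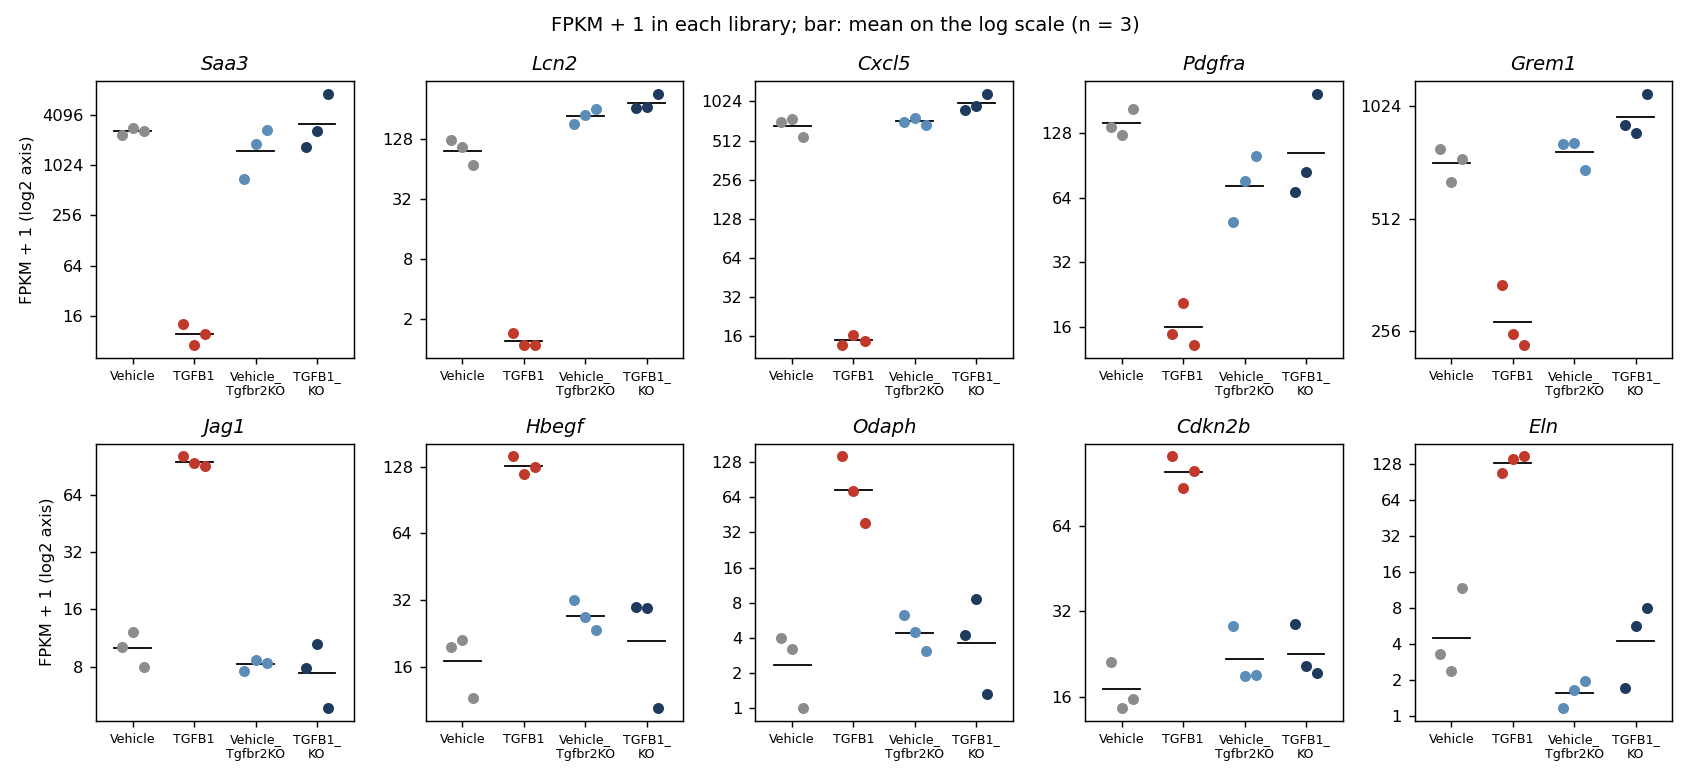
FPKM + 1 of 10 genes in each of the 12 libraries, on a log2 axis, with 1 point per library and a bar at the mean on the log scale of each group (n = 3). In the upper row (Saa3, Lcn2, Cxcl5, Pdgfra, Grem1) the TGFB1 libraries are the lowest, and in the lower row (Jag1, Hbegf, Odaph, Cdkn2b, Eln) they are the highest.

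Secreted growth factors were called in both directions, 10 higher and 7 lower of 24, beside 8.38% and 9.26% over all genes. Ptn, the heparin-binding growth factor pleiotrophin, was at 94.7, 185 and 478 FPKM in Vehicle, 1.82, 5.26 and 2.97 in TGFB1, 8.30, 38.9 and 116 in Vehicle_Tgfbr2KO and 16.1, 49.4 and 437 in TGFB1_KO. Its knockout libraries spread over more than 1 order of magnitude, and the interaction of 6.67 had an SE of 1.67 (adjusted p = 0.0219). The call was lost without TGFB1 replicate 1 (adjusted p = 0.0552). Vegfd, a lymphangiogenic factor, had an interaction of 4.59 (SE 0.71, adjusted p = 0.00218). Igfbp4 and Igfbp5, which bind insulin-like growth factors, had values of 4.74 and 4.73 and were the 2 of 6 binding proteins called, while the block within genotype called 6.

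Hbegf, the heparin-binding EGF-like ligand of the EGF receptor, was the strongest growth factor on the lower side. It was at 18.7, 20.2 and 10.6 FPKM in Vehicle, 142, 118 and 127 in TGFB1, 30.9, 25.96 and 22.4 in Vehicle_Tgfbr2KO and 28.8, 28.5 and 9.44 in TGFB1_KO (interaction -3.32, SE 0.52, adjusted p = 0.00249). The mean rose 7.82-fold without the knockout, and the knockout ratio was 0.842.

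Adipogenic and lipid storage genes gave 7 higher and 2 lower of 15, beside 8.38% and 9.26% over all genes. Their median interaction was 0.95. Lpl, lipoprotein lipase, was at 7.44 to 17.5 FPKM in Vehicle, 0.708 to 1.16 in TGFB1, 7.15 to 9.82 in Vehicle_Tgfbr2KO and 7.36 to 19.3 in TGFB1_KO (interaction 3.11, SE 0.48, adjusted p = 0.0021). The fatty acid carrier Fabp4 had an interaction of 2.88 and the transcription factor Cebpd of 2.48. The lipid droplet coat gene Plin2 went the other way, at -1.27.

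On the lower side, Jag1, a Notch ligand, was at 9.19, 11.2 and 7.03 FPKM in Vehicle and 101, 92.8 and 90.1 FPKM in TGFB1. It was at 6.60, 7.73 and 7.40 FPKM in Vehicle_Tgfbr2KO and 6.87, 9.55 and 3.86 FPKM in TGFB1_KO. The 9 libraries other than TGFB1 lay within 3.86 to 11.2 FPKM, and the interaction was -3.41 (SE 0.34, adjusted p = 0.000179). Odaph, a gene known from tooth enamel, was listed at 2.99, 2.23 and 0 FPKM in Vehicle, 143, 71.1 and 37.3 in TGFB1, 5.29, 3.48 and 2.09 in Vehicle_Tgfbr2KO and 3.25, 7.59 and 0.312 in TGFB1_KO. Its interaction of -5.26 (SE 1.05, adjusted p = 0.00756) was the most negative of the called genes.

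The next genes on the lower side also had their TGFB1 libraries above the 9 others. The protease inhibitor Tfpi2 was at 30.4 to 32.1 FPKM in TGFB1 and 1.53 to 3.61 FPKM in the 9 other libraries (interaction -3.32, SE 0.28, adjusted p = 9.22e-05). Olfm2, an olfactomedin family protein, was at 21.1 to 28.1 FPKM in TGFB1 and 1.28 to 3.05 elsewhere (interaction -3.08, SE 0.26). The gene 3110040M04Rik, the acyl-CoA synthetase Acsbg1, the stathmin Stmn4 and the semaphorin Sema7a had interactions of -3.62, -3.16, -2.88 and -2.87. Mmp9, a gelatinase, had -2.85 (SE 0.74, adjusted p = 0.0253), a call lost without TGFB1 replicate 2 or 3 or Vehicle_Tgfbr2KO replicate 2 or 3 (adjusted p up to 0.0577).

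The components of TGF-beta signalling itself gave 1 gene higher and 5 lower of 16 tested ligands, receptors and latency genes. The shares over all genes were 8.38% and 9.26%, and the median interaction of the list was -0.38. Tgfb1, the gene of the added ligand, was at 32.3, 25.1 and 29.96 FPKM in Vehicle, 53.7, 49.6 and 56.7 in TGFB1, 32.8, 33.1 and 31.9 in Vehicle_Tgfbr2KO and 31.5, 31.7 and 30.6 in TGFB1_KO (interaction -0.91, SE 0.12, adjusted p = 0.000789). Its 6 knockout libraries lay within 30.6 to 33.1 FPKM. Tgfb2 had an interaction of -1.67 (SE 0.37, adjusted p = 0.0129). The gene on the higher side was Tgfbr3, the co-receptor betaglycan, at 27.1, 31.3 and 34.9 FPKM in Vehicle, 1.71, 4.32 and 4.51 in TGFB1, 16.3, 30.6 and 30.4 in Vehicle_Tgfbr2KO and 24.2, 30.5 and 50.1 in TGFB1_KO (interaction 3.31, SE 0.48, adjusted p = 0.00157). The type I receptor Tgfbr1 had 0.53 (adjusted p = 0.0656, and 0.0241 with the block within genotype). The list's count of 6 was 10 with that block. It ran from 3 to 7 when single libraries were left out and moved by over 1.5 times without TGFB1 replicate 1 or 2 or Vehicle_Tgfbr2KO replicate 1 or 2.

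Early targets and feedback genes of the SMAD branch were called lower more often than higher. Of 19 early targets, 9 were called lower and 2 higher, beside 9.26% and 8.38% over all genes. Their median change was 0.66 without the knockout and 0.06 in it. Pmepa1, which sequesters receptor-activated SMADs, was at 41.5, 35.2 and 37.6 FPKM in Vehicle, 141, 113 and 113 in TGFB1, 27.1, 28.6 and 27.9 in Vehicle_Tgfbr2KO and 26.2, 32.1 and 24.8 in TGFB1_KO (interaction -1.67, SE 0.16, adjusted p = 0.00014). Skil, a SMAD corepressor, was at 11.8 to 13.1 FPKM in Vehicle, 27.5 to 29.8 in TGFB1 and 11.4 to 12.5 in all 6 knockout libraries (interaction -1.15, SE 0.08, adjusted p = 4.09e-05). The TGFB1 libraries of both genes were above the 9 others, and the knockout libraries of Pmepa1 were all below its Vehicle libraries.

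Cdkn2b, the cell cycle inhibitor p15, was at 20.3, 13.6 and 14.8 FPKM in Vehicle, 111, 85.6 and 98.6 in TGFB1, 27.4, 17.9 and 18.1 in Vehicle_Tgfbr2KO and 27.9, 19.6 and 18.4 in TGFB1_KO (interaction -2.48, SE 0.30, adjusted p = 0.00052). Ccn2, connective tissue growth factor, was at 803, 739 and 455 FPKM in Vehicle, 2002, 1963 and 1982 in TGFB1, 799, 686 and 555 in Vehicle_Tgfbr2KO and 858, 695 and 300 in TGFB1_KO. Its interaction was -1.87 (SE 0.49, adjusted p = 0.026), and the call was lost without any 1 of 6 libraries (TGFB1 replicates 1, 2 and 3, Vehicle replicate 3, Vehicle_Tgfbr2KO replicates 1 and 2; adjusted p up to 0.0638). Smad7, the inhibitory SMAD, was at 24.8, 24.8 and 14.1 FPKM in Vehicle, 37.2, 40.4 and 32.5 in TGFB1, 38.7, 27.6 and 21.8 in Vehicle_Tgfbr2KO and 31.6, 26.2 and 14.98 in TGFB1_KO. Its interaction of -1.09 (SE 0.42) did not pass (adjusted p = 0.102) and did with the block within genotype (adjusted p = 0.0063). The 2 early targets called higher were Lmcd1, a LIM domain protein, at 1.05 and Ahr, the aryl hydrocarbon receptor, at 1.38, both picked out after their values were seen.

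Matrix genes did not share a direction. Of 24 fibrillar collagens and matrix genes, 6 were higher and 5 lower, beside 8.38% and 9.26% over all genes. Their median change was 0.47 without the knockout and 0.46 in it. The knockout change passed its own test for 0 of all 12641 genes, and near-equal medians do not mean that single genes changed alike. The block within genotype called 17. Prelp, a leucine-rich proteoglycan, was at 14.5 to 19.2 FPKM in Vehicle, 0.0644 to 0.112 in TGFB1, 13.6 to 25.1 in Vehicle_Tgfbr2KO and 22.7 to 36.2 in TGFB1_KO (interaction 4.61, SE 0.33, adjusted p = 4.09e-05). The collagen V chain Col5a3 was at 8.37 to 16.9, 106 to 135, 4.71 to 7.75 and 6.52 to 14.1 FPKM in the same order of groups (interaction -2.63, SE 0.41, adjusted p = 0.00236). Prelp and Col5a3 are thus matrix genes at opposite ends.

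Col1a1, the main collagen I chain, was at 2546, 2165 and 3881 FPKM in Vehicle, 3737, 4110 and 4291 in TGFB1, 845, 1395 and 1329 in Vehicle_Tgfbr2KO and 1166, 1469 and 2478 in TGFB1_KO. Both genotypes had higher means with TGFB1, and the interaction was -0.06 (SE 0.42, 95% interval -0.99 to 0.87, adjusted p = 0.939). Its sign changed when single libraries were left out. Col3a1, picked out after its values were seen, had an interaction of 2.12 (SE 0.88, adjusted p = 0.126), and the block within genotype gave an adjusted p of 0.0147. Elastin, Eln, was at 2.32, 1.35 and 10.8 FPKM in Vehicle, 108, 141 and 148 in TGFB1, 0.160, 0.647 and 0.941 in Vehicle_Tgfbr2KO and 0.693, 4.69 and 6.93 in TGFB1_KO. The ratio of means was 27.4 without the knockout and 7.04 in it. The interaction of Eln was -3.42 (SE 0.90, adjusted p = 0.0267), and the call was lost without any 1 of 6 libraries (TGFB1 replicates 2 and 3, Vehicle replicates 1 and 2, Vehicle_Tgfbr2KO replicates 2 and 3) or with a pseudocount of 0.5 or 0.1.

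Contractile and actin genes gave 8 lower and 0 higher of 23, beside 9.26% and 8.38% over all genes. Their median interaction was -0.32. Tpm1, a tropomyosin, was at 1593 to 1879 FPKM in Vehicle, 3085 to 3301 in TGFB1, 1627 to 1646 in Vehicle_Tgfbr2KO and 1269 to 1759 in TGFB1_KO (interaction -0.95, SE 0.16, adjusted p = 0.00335). The fibronectin receptor subunit Itga5 had -1.50 and the actin-binding Tagln -0.89. Acta2, smooth muscle actin, was at 2022, 1945 and 1657 FPKM in Vehicle, 2684, 2294 and 2265 in TGFB1, 1803, 1742 and 1788 in Vehicle_Tgfbr2KO and 2148, 1861 and 1396 in TGFB1_KO. Its interaction of -0.37 did not pass (SE 0.20, 95% interval -0.81 to 0.08, adjusted p = 0.232).

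Cell cycle genes gave 11 higher and 2 lower of 31, beside 8.38% and 9.26% over all genes. The 2 lower were the inhibitors Cdkn2b and Cdkn1a, the latter picked out after its values were seen. The median change was -0.76 without the knockout and -0.08 in it. Cyclin B2, Ccnb2, was at 31.1, 35.2 and 33.2 FPKM in Vehicle, 12.95, 17.9 and 14.0 in TGFB1, 17.6, 22.9 and 30.97 in Vehicle_Tgfbr2KO and 22.4, 27.4 and 30.3 in TGFB1_KO (interaction 1.29, SE 0.27, adjusted p = 0.00866). The count of 13 was 22 with the block within genotype and 20 without TGFB1 replicate 2. Cholesterol synthesis genes gave 5 higher and 0 lower of 23, beside 17.6% called over all genes. The block called 15 of the 23, beside 28.1% over all genes. With single libraries left out, 1 to 8 were called (over 1.5 times away without TGFB1 replicate 1, Vehicle replicate 2 or any of the 3 Vehicle_Tgfbr2KO libraries). Idi1, an isomerase of the mevalonate pathway, had the largest value of the 5 at 0.97, and its call was lost without any 1 of 7 libraries (TGFB1 replicates 1 and 3, TGFB1_KO replicate 3, Vehicle replicates 2 and 3, Vehicle_Tgfbr2KO replicates 1 and 2; adjusted p up to 0.0741) or with no filter.

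Matrix proteases and inhibitors were called in both directions, 5 higher and 7 lower of 24, beside 8.38% and 9.26% over all genes. Adamts5, an aggrecan-cleaving protease, led the higher side at 2.56. YAP-TEAD targets gave 0 higher and 3 lower of 15, and 8 called under the block within genotype (5 without TGFB1_KO replicate 1). Serine, proline and ATF4 genes gave 0 higher and 3 lower of 22, and 10 called under the block (2 to 5 with single libraries left out, over 1.5 times away without TGFB1_KO replicate 3 or Vehicle_Tgfbr2KO replicate 1). Glycolysis and hypoxia genes gave 0 higher and 4 lower of 20, with phosphofructokinase Pfkp at -0.84, and 2 to 4 called when single libraries were left out (over 1.5 times away without TGFB1 replicate 1, TGFB1_KO replicate 2 or Vehicle replicate 2). Without the block, the shares of the last 3 lists are near the background of 17.6%. The block called 28.1% of all genes, and its 8 of 15 and 10 of 22 lie above that share. For glycolysis and hypoxia it called 5 of 20.

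**Figure D4:**
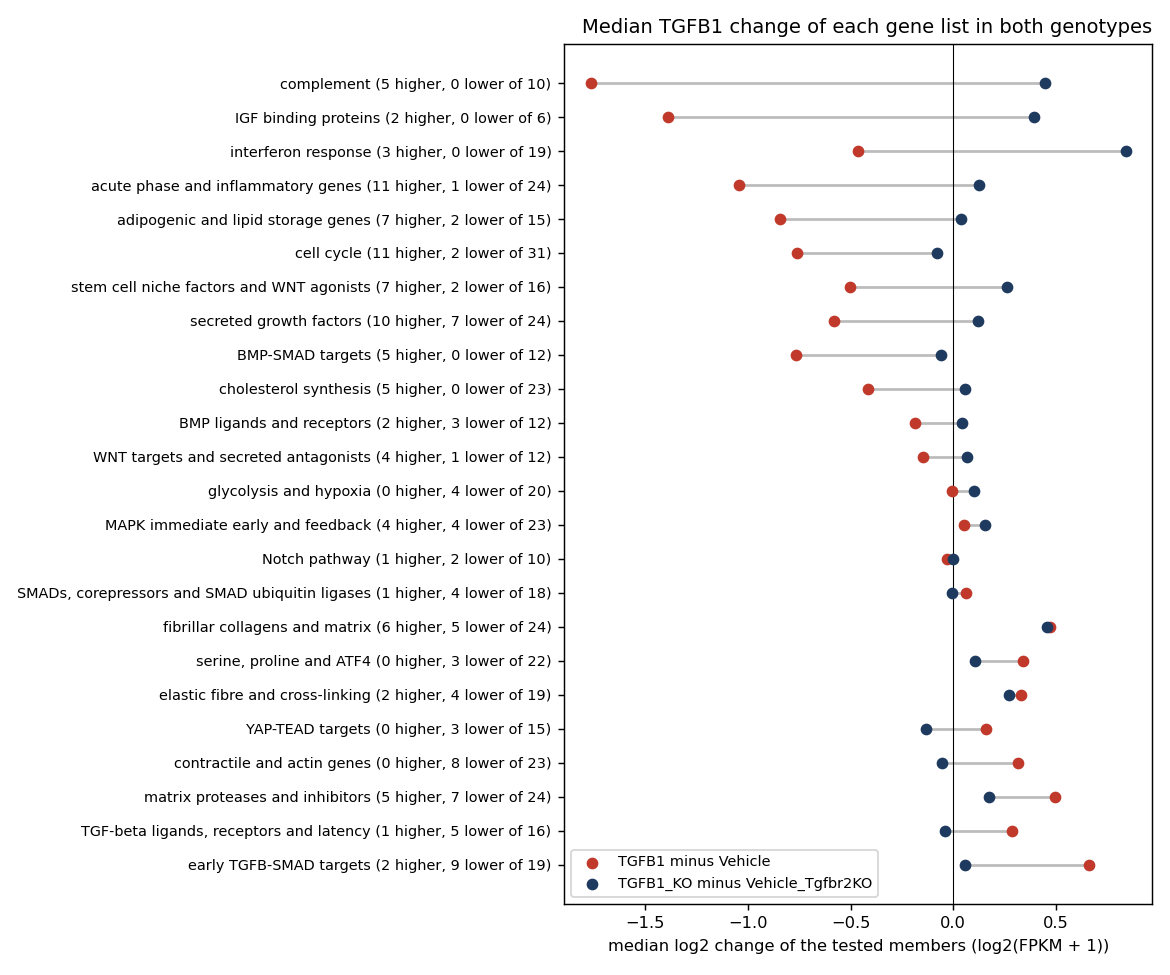
For each of 24 gene lists, the x axis gives the median log2 change of its tested members for TGFB1 minus Vehicle (red) and TGFB1_KO minus Vehicle_Tgfbr2KO (blue), on log2(FPKM + 1), and the label gives the members called higher and lower of those tested. The red points run from complement (-1.77) to the early TGFB-SMAD targets (0.66), while the blue points lie close to 0 except for lists such as interferon response (0.84), complement (0.45) and the fibrillar collagens (0.46).

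How much of the TGFB1 change persisted in Tgfbr2KO was described for the 693 genes whose change without the knockout passed the threshold and was at least 2-fold. The change they were chosen on is made of the Vehicle and TGFB1 means, which share no library with the knockout change. The spread behind the threshold and the expression filter used all 12 libraries, so the choice was not fully separate from the knockout libraries. The median share kept was -7.08% (quartiles -20.9% and 5.12%). Only 7 genes (1.01%) kept at least 50% of the change. The 264 genes that rose kept a median of 1.25% (quartiles -10.0% and 11.8%), and 129 of them (48.9%) had a knockout change of the opposite sign.

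The 429 genes that fell had a knockout change that leaned the other way. Their median knockout change was 0.21 on the log2 scale, a kept share of -13.2% (quartiles -25.4% and -0.559%), and 327 (76.2%) changed with the opposite sign. The 3 knockout pairs gave medians of 0.18, 0.05 and 0.43 for these genes and opposite signs in 326, 267 and 318 of them. Replicate number 3 was therefore the largest and number 2 the smallest, and no single gene of the knockout change passed its own test. For the 264 that rose, the 3 pairs gave medians of 0.00, 0.10 and -0.07.

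By the naming rule, 5 genes kept at least 50% of a called change of at least 2-fold with the same sign in all 3 pairs and at least 5 FPKM in a group: Tmem254b, Mir143, Postn, Trim12a and Mir145a. None of the 5 was called for the interaction. Postn, the matrix protein periostin, was at 285, 155 and 355 FPKM in Vehicle, 769, 685 and 799 in TGFB1, 61.8, 127 and 134 in Vehicle_Tgfbr2KO and 117, 186 and 290 in TGFB1_KO. Its level was 2.83 times higher with TGFB1 without the knockout and 1.84 times higher in it, an interaction of -0.72 (SE 0.56, 95% interval -1.97 to 0.52, adjusted p = 0.407). That interval reaches from a kept change to a lost one. Mir145a had 0.50 (adjusted p = 0.0967, and 0.0213 with the block within genotype). Tmem254b has near-identical copies in the genome, so its values are uncertain, and microRNA loci are short for libraries made from poly(A) RNA.

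A small group of called genes changed more in Tgfbr2KO than without it, 32 with at least 5 FPKM in a group, 21 higher and 11 lower. Without the FPKM limit they were 35 of the 1059 higher genes and 14 of the 1171 lower genes. The knockout change alone passed its own test for 0 of them. The matching share over all tested genes was not counted, so these counts have no background to stand beside. Fos, an immediate early AP-1 subunit, was at 5.56, 7.27 and 12.2 FPKM in Vehicle, 3.71, 3.42 and 4.72 in TGFB1, 4.83, 6.58 and 6.09 in Vehicle_Tgfbr2KO and 12.6, 12.7 and 22.5 in TGFB1_KO. The 3 TGFB1_KO libraries were above all others and the 3 TGFB1 libraries below them. The change was -0.86 without the knockout and 1.27 in it, an interaction of 2.13 (SE 0.38, adjusted p = 0.00453), while the knockout change alone had an adjusted p of 0.643. Egr1, an immediate early zinc finger factor, was at 36.8, 48.9 and 66.3 FPKM in Vehicle, 33.3, 47.8 and 58.0 in TGFB1, 30.3, 41.4 and 37.0 in Vehicle_Tgfbr2KO and 68.3, 76.9 and 99.7 in TGFB1_KO.

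The interaction of Egr1 was 1.27 (SE 0.35, adjusted p = 0.0321), made of -0.12 without the knockout and 1.14 in it. The call was kept without TGFB1 replicate 3, TGFB1_KO replicate 1, Vehicle replicate 1 or Vehicle_Tgfbr2KO replicate 2 and lost without any other single library (adjusted p up to 0.0773). Of the 23 MAPK immediate early and feedback genes, 4 were called higher and 4 lower, beside 8.38% and 9.26% over all genes. Their median interaction was 0.02. Egr2 went the other way from Egr1 at -1.97 (SE 0.33, adjusted p = 0.0031), as did the phosphatase Dusp5 at -1.67, while the Sprouty inhibitor Spry2 was at 1.46. The call of Dusp5 was kept without any 1 of the 3 TGFB1_KO libraries or without Vehicle_Tgfbr2KO replicate 3, and lost without any other single library (adjusted p up to 0.0822) or with no filter. The block within genotype called 13 of this list, and single libraries left out gave 4 to 9, with counts over 1.5 times away without TGFB1 replicate 1 or 2, Vehicle replicate 2 or 3, or Vehicle_Tgfbr2KO replicate 1 or 2.

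Interferon response genes had the largest median change in the knockout of all lists, 0.84, against -0.46 without it, and a median interaction of 1.45. Of 19, 3 were called, Usp18, Gbp2 and Ifit2, all higher, a share near the 17.6% called over all genes. Usp18, an ISG15 protease, was at 3.28, 1.19 and 2.97 FPKM in Vehicle, 0.812, 0.797 and 1.14 in TGFB1, 3.75, 4.61 and 3.94 in Vehicle_Tgfbr2KO and 4.99, 11.5 and 18.2 in TGFB1_KO (interaction 1.95, SE 0.53, adjusted p = 0.0295). Isg15, picked out after its values were seen, was at 5.34, 40.9 and 86.4 FPKM in TGFB1_KO and between 4.33 and 14.5 in the 9 other libraries. TGFB1_KO replicate 1 was thus within the range of the other groups for Isg15 and replicates 2 and 3 were above it.

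The interaction of Isg15 was 2.13 (SE 1.15, adjusted p = 0.231, and 0.0434 with the block within genotype). The count of 3 called interferon genes was 13 without TGFB1_KO replicate 1, 11 with the block within genotype and 0 to 2 without any 1 of the 11 other libraries. Over all genes the block called 28.1%. Usp18 kept its call without TGFB1_KO replicate 1, TGFB1_KO replicate 3 or Vehicle replicate 2 and lost it without any other single library. Gbp2, a guanylate-binding protein, kept it without TGFB1_KO replicate 1 or Vehicle_Tgfbr2KO replicate 3 only, and Ifit2 without 4 libraries.

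**Figure D5:**
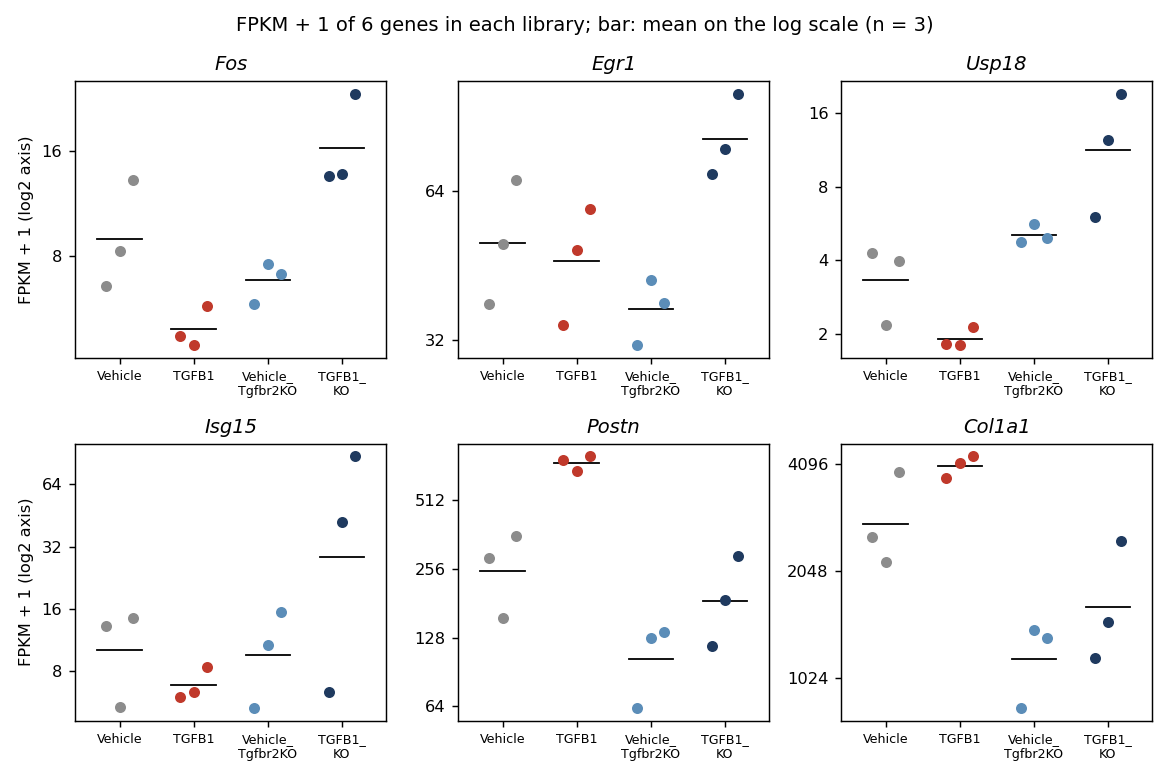
FPKM + 1 of Fos, Egr1, Usp18, Isg15, Postn and Col1a1 in each of the 12 libraries, on log2 axes, with a bar at the mean on the log scale of each group (n = 3). The TGFB1_KO libraries are the highest for Fos, Egr1 and Usp18, they spread from 5.34 to 86.4 FPKM for Isg15, and the TGFB1 libraries are the highest for Postn.

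For many genes the data bound the interaction to a narrow range. The 95% interval lay within -0.5 to 0.5 on the log2 scale for 4812 genes (38.1%) and within -1 to 1 for 9510 (75.2%). Of these, 4684 and 8474 were not called for the interaction, and the rest were. For genes at low FPKM the pseudocount of 1 itself shrinks changes and intervals. The median SE was 0.154 and the median interval reached 0.343 to either side.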

How the data were processed

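RNA from 12 cultures was purified with poly-T beads and sequenced, per the labels' protocols. The deposited values are FPKM, in a single table that the authors made. The submitters' processing notes name kallisto 0.46.1, DESeq2 1.40.1 and mm9 without saying what each was used for. FPKM holds no counts, so no count test was run. Values were tested as log2(FPKM + 1) with limma 3.58.1 in R 4.3.3 (group means, 8 residual degrees of freedom, variance trend), with Benjamini-Hochberg adjustment over 12641 genes and a threshold of 0.05. Fold changes on this scale understate the change of low genes. The fit was tested on simulated data with independent noise in each library. That test had no effect shared by same-numbered libraries, so it does not cover the correlations described below.

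Replicate numbers 1, 2 and 3 come from the labels, which also give them as 31, 121 and 123 without saying what these are. Deviations from group means of same-numbered libraries correlated at 0.391, 0.445 and 0.408 without the knockout and at 0.588, 0.227 and 0.529 in it, in number order. Across genotypes, all 3 numbers were over 0.1 for Vehicle with TGFB1_KO (0.412, 0.167 and 0.607), while number 2 was at -0.0867, -0.012 and 0.00945 in the 3 other pairs of groups. The block was therefore set within genotype, and a block across genotypes was also run.

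The genes, lists and tests were chosen with earlier results of these data known. Named genes were the 12 highest and 12 lowest called interactions, up to 4 called members per list, 8 called genes with the larger change in knockout, those that kept at least 50% of the change, and a set list of 11, with at least 5 FPKM in a group except for the last. Alternatives covered pseudocounts, filters, scaling, blocks, the variance trend and left-out libraries.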

Additional observations from a re-analysis of the deposited data

Results flagged for a closer look

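The interaction is itself a test of whether 2 genotypes differ in their response, so each of the 2230 called genes is a difference between groups; the genes below are those, by the naming rule, whose change with TGFB1 was larger in Tgfbr2KO than without it. On the log2 scale, the interaction was 2.13 for Fos, 1.27 for Egr1, 1.95 for Usp18, 1.02 for Sat2 (SE 0.17, adjusted p = 0.00355) and 0.75 for Echs1 (SE 0.19, adjusted p = 0.0215) by limma. Sat2, a polyamine acetyltransferase family gene, was at 5.52, 4.94 and 5.72 FPKM in TGFB1_KO and at 2.73, 4.02 and 3.36 in Vehicle_Tgfbr2KO. Echs1, a mitochondrial enzyme of fatty acid oxidation, was at 35.9, 33.1 and 46.6 FPKM in TGFB1_KO and at 24.4, 28.9 and 31.3 in Vehicle_Tgfbr2KO, and its call was lost without TGFB1 replicate 2 or Vehicle_Tgfbr2KO replicate 1 (adjusted p up to 0.0509).

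The other 3 genes were microRNA loci at low FPKM, short features in libraries made from poly(A) RNA. Mir212 (2.96, SE 0.64, adjusted p = 0.0112) was listed at 0 in all 3 Vehicle_Tgfbr2KO libraries and at 3.62, 14.5 and 5.32 FPKM in TGFB1_KO. Mir8103 (-3.18, SE 0.87, adjusted p = 0.0318) was listed at 0 in all 3 TGFB1_KO libraries and in 3 of the 6 non-knockout libraries, and its adjusted p was 0.065 with the block within genotype. Its call was kept without TGFB1 replicate 2, TGFB1_KO replicate 1 or Vehicle replicate 2, and lost without any other single library (adjusted p up to 0.0746) or with no filter. Mir1932 (2.76, SE 0.74, adjusted p = 0.0285) was listed at 0 in 2 TGFB1 libraries and 1 Vehicle_Tgfbr2KO library, and its call was lost without any 1 of 6 libraries (TGFB1 replicates 2 and 3, TGFB1_KO replicates 1 and 3, Vehicle replicate 1, Vehicle_Tgfbr2KO replicate 2; adjusted p up to 0.0674). Whether the values of these loci come from host transcripts was not tested.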

How the results depend on the processing

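The count of 2230 called interactions lay between 1910 and 2274 with pseudocounts of 0.5 or 0.1, no filter, a minimum of 5 FPKM, upper-quartile or median-ratio scaling, or no variance trend. It was 3658 (1716 higher, 1942 lower) with a replicate block across genotypes and 3558 (1733 higher, 1825 lower) with the replicate block within genotype. Leaving out single libraries gave 1486 to 2457 genes, 713 to 1146 higher and 773 to 1311 lower, the lowest without TGFB1 replicate 1 and the highest without TGFB1_KO replicate 1. Leaving a replicate number out of all 4 groups, chosen after seeing the data, gave 511 genes without number 1 (268 higher, 243 lower), 295 without number 2 (176 higher, 119 lower) and 1708 without number 3; with 2 libraries a group, fewer samples entered these fits. Upper-quartile scaling moved the median interaction of all genes from -0.02 to 0.02. Of 105 named called genes, 80 kept the call without any single library, and Mir8103 was the 1 that lost it with the block within genotype. Signs reversed for 3 genes that were not called, where the cause was not tested. With single libraries left out, Col1a1 ranged from -0.37 to 0.17, Tgfbr2 from -0.33 to 0.18 and Mir143 from -0.092 to 0.58. Without replicate number 2, Col1a1 was at 0.33 and Tgfbr2 at 0.32, and Mir143 was at -0.040 without number 1 and -0.057 without number 3. Depth is known only in relative terms, so counting error at low FPKM could not be given.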
